A study of Mus musculus with 2 samples.

Results

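The expression of 5 genes of the sodium pump was examined by cell type in postischemic mouse kidney. The genes were Atp1b1 and Atp1b3, which encode beta subunits of the pump, and Fxyd2, Fxyd4 and Fxyd5, which encode small membrane proteins that bind it. They were taken by symbol, are 5 of the 32285 genes counted, and belong to a family list of 18 genes that also holds other pump subunits and related pumps. Single-cell RNA sequencing had been done on the kidneys of 2 male C57BL/6 mice aged 9 weeks. One mouse received saline (control) and the other the poly(ADP-ribose) polymerase inhibitor JPI-289 at 100 mg/kg, each injected into the peritoneum just before blood flow was restored. Both kidneys were taken 24 h after bilateral ischemia, so the control is itself a postischemic kidney, and normal kidneys were not analysed here. Each condition is 1 library from 1 mouse. The values therefore compare these libraries, no test between the conditions was possible, and all intervals are 95% intervals that cover counting error only.

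The sodium pump (Na,K-ATPase) moves sodium out of a cell and potassium into it at the cost of ATP, and in tubules it sits in the basolateral membrane. The sodium gradient it makes drives the reabsorption of salt, glucose, phosphate and amino acids, and the pump is a large consumer of oxygen in the kidney. A catalytic subunit carries the transport, a beta subunit brings it to the membrane, and an FXYD protein adjusts its affinity and rate. FXYD2 is the gamma subunit of the proximal and thick limb tubule, FXYD4 is the channel-inducing factor of the collecting duct, and FXYD5 (dysadherin) is found in several epithelia and in blood-derived cells. Loss of pump from the basolateral membrane is a known feature of ischemic proximal tubules.

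The genes lie on 4 chromosomes of GRCm38 (GENCODE vM21) and all are protein coding. Atp1b1 (ENSMUSG00000026576) lies on the minus strand at chr1:164437109-164458355 and overlaps Nme7 on the opposite strand. Atp1b3 (ENSMUSG00000032412) lies on the minus strand at chr9:96332655-96364442, and Fxyd2 (ENSMUSG00000059412) on the plus strand of the same chromosome at chr9:45399669-45410278. Fxyd4 (ENSMUSG00000004988) is at chr6:117933559-117937692 and Fxyd5 (ENSMUSG00000009687) at chr7:31032722-31042481, both on the minus strand. The beta subunit genes are shown by their promoters because the libraries read the 5′ ends of transcripts, and because these 2 genes differed between the libraries in opposite directions. RefSeq (GRCm38.p6) gave 230 bases that end before the first annotated exon, at chr1:164458376-164458605 and chr9:96364452-96364681, printed 5′ to 3′ on the minus strand with GC boxes (GGGCGG on either strand) in capitals.
Atp1b1: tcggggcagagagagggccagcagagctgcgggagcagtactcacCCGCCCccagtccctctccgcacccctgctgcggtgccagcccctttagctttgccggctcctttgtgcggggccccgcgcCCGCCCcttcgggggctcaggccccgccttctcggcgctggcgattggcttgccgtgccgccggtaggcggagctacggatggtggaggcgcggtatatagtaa
Atp1b3: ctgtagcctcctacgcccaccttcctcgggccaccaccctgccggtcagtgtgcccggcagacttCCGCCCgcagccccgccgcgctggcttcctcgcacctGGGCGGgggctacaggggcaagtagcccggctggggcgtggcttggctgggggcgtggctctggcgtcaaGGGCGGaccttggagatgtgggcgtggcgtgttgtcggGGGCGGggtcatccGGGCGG
Both stretches are rich in CpG, with 22 CpG each, more than 88.5% of the 32851 promoter windows of the same length. The Atp1b1 stretch holds 2 GC boxes and the Atp1b3 stretch 5, where 29.81% of all windows hold at least 1. RefSeq lists another Atp1b3 window of this length inside the gene, at chr9:96363736-96363965, with 33 CpG and 0 GC boxes. A CCAAT box (CCAAT on either strand), found in 32.18% of windows, occurs 1 time in the Atp1b1 stretch and is not in the Atp1b3 stretch. Neither holds the letters TATAAA, which 11.78% of windows contain. These matches describe the letters only.

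The control library held 3768 cells and the JPI-289 library 5046 after calling and filtering, and the median cell had 2041.5 and 1865.5 unique molecular identifiers (UMIs). The libraries shared 23 cell barcodes. Clusters were named from marker genes that exclude the pump family, and 10 classes had at least 50 cells in each library: proximal tubule (PT)-like, thin limb-like, thick ascending limb (TAL)-like, distal convoluted and connecting tubule (DCT-CNT)-like, principal cell (PC)-like, endothelial (EC)-like, stroma-like, mononuclear phagocyte-like, neutrophil-like and red blood cell-like. All 16 PT markers and all 9 markers each of TAL, DCT-CNT and PC had UMIs in their class in both libraries, and 4 of the 5 thin limb markers did. These markers also named the clusters, and any UMI counted, so this does not test the names. Clusters left unnamed held 10.1% of control and 17.1% of JPI-289 cells. Intercalated, podocyte, lymphocyte, platelet and urothelium clusters were under the limit in at least 1 library. Free RNA, read from barcodes with 1 to 99 UMIs, made up an estimated 2.53% to 24.2% of the UMIs of a class, judged from markers the class should lack. Levels are given in CPM, counts per 1000000 UMIs of the class. Free RNA was rich in pump transcripts and differed between the libraries, at 1526 CPM of Atp1b1 in the control and 588 CPM after JPI-289. Its value is given beside many of the results it touches.

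Atp1b1, the main beta subunit of most tubules, was a tubule gene in both libraries. In the control library it was highest in DCT-CNT-like cells at 3426 CPM, followed by TAL-like cells at 2364, PC-like cells at 2330.1, PT-like cells at 1441 and thin limb-like cells at 1000.5. TAL-like and PC-like cells did not differ beyond their counting intervals there. In the JPI-289 library the order was DCT-CNT-like (2434), TAL-like (1703), thin limb-like (1585), PC-like (1434) and PT-like cells (306), and the intervals of neighbours from TAL-like to PC-like cells overlapped. PT-like cells thus lay above thin limb-like cells in the control and below every other tubule class after JPI-289. The classes outside the tubule had 131 to 298.9 CPM in the control and 64.9 to 117 in the JPI-289 library. All of these were below the free RNA, which held 1526 and 588 CPM. PT-like cells in both libraries and thin limb-like cells in the control were below it as well.

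Atp1b3, the beta 3 subunit, which is widely expressed and common in leukocytes, had another order. Among named classes with at least 50 cells in each library, it was highest in neutrophil-like cells. These had 331 CPM in the control and 834 after JPI-289. Mononuclear phagocyte-like cells followed with 189 and 309, and thin limb-like cells with 170 and 277. Unnamed cluster 17, outside these classes, had more than neutrophil-like cells, at 501 and 1278. Its leading marker list was that of mononuclear phagocytes, with a mean log2 score of 4.68 beside 4.25 for the named mononuclear phagocyte-like cluster. The lead of neutrophil-like cells thus depends on leaving cluster 17 unnamed. Among tubule classes PT-like cells (52.3 and 90.3) and DCT-CNT-like cells (30.3 and 49.2) had the least. Free RNA held 63.5 CPM of Atp1b3 in the control and 154 after JPI-289. That was above PT-like and DCT-CNT-like cells in each library, and above TAL-like and PC-like cells after JPI-289. Red blood cell-like cells had 0 UMIs in the control, which allows up to 21.2 per 1000000 at 3 counts, and 6 in the JPI-289 library. Neutrophil-like cells were clear of the next named class in both libraries, while in the control each class below them overlapped its neighbours in the order.

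The FXYD genes divided the tubule and the other cells between them. Among the 10 classes Fxyd2 had its highest level in DCT-CNT-like cells, at 10347 CPM in the control and 4020.2 after JPI-289. Unnamed cluster 2, outside these classes, had 10449 and 4665. TAL-like cells had 8497 and 3032, PT-like cells 3082 and 3044, PC-like cells 1199 and 399, and thin limb-like cells 961 and 926. PT-like cells were below TAL-like cells in the control library, but in the JPI-289 library their intervals overlapped. Free RNA held 2356 and 1836 CPM of Fxyd2, and in PC-like cells it was estimated to give 61.7 of the 1242 and 194 of the 546 UMIs of the gene. Fxyd4 was almost confined to PC-like cells among these 10 classes, at 2591 and 1454, against 74.9 and 10.9 in DCT-CNT-like cells and 31.9 and 6.56 in PT-like cells. Free RNA held 116 and 40.7 CPM of Fxyd4, more than any of these classes but PC-like cells. The ratio of the highest class to the next was 34.6 in the control, where DCT-CNT-like cells came next. After JPI-289 it was 127, but the next class was then mononuclear phagocyte-like cells, with only 6 UMIs of the gene. Fxyd5 was a gene of leukocytes and vessels, with 2573 and 1030.2 in mononuclear phagocyte-like cells, 2101 and 2097 in neutrophil-like cells, 665 and 608 in EC-like cells and 313 and 316 in stroma-like cells. In the 5 tubule classes Fxyd5 did not exceed 21.7 in the control or 45.4 in the JPI-289 library, against free RNA of 79.4 and 166 in barcodes with 1 to 99 UMIs. Barcodes of 100 to under 300 UMIs held 28.4 and 36.9 CPM of Fxyd5, and the 45.4 in thin limb-like cells of the JPI-289 library lies above that. Among the 10 classes, which leave out cluster 17, the one with the highest level was the same in both libraries for 4 of the 5 genes. The exception was Fxyd5, which cluster 17 had at 1568 and 1008 CPM.

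**Figure D1:**
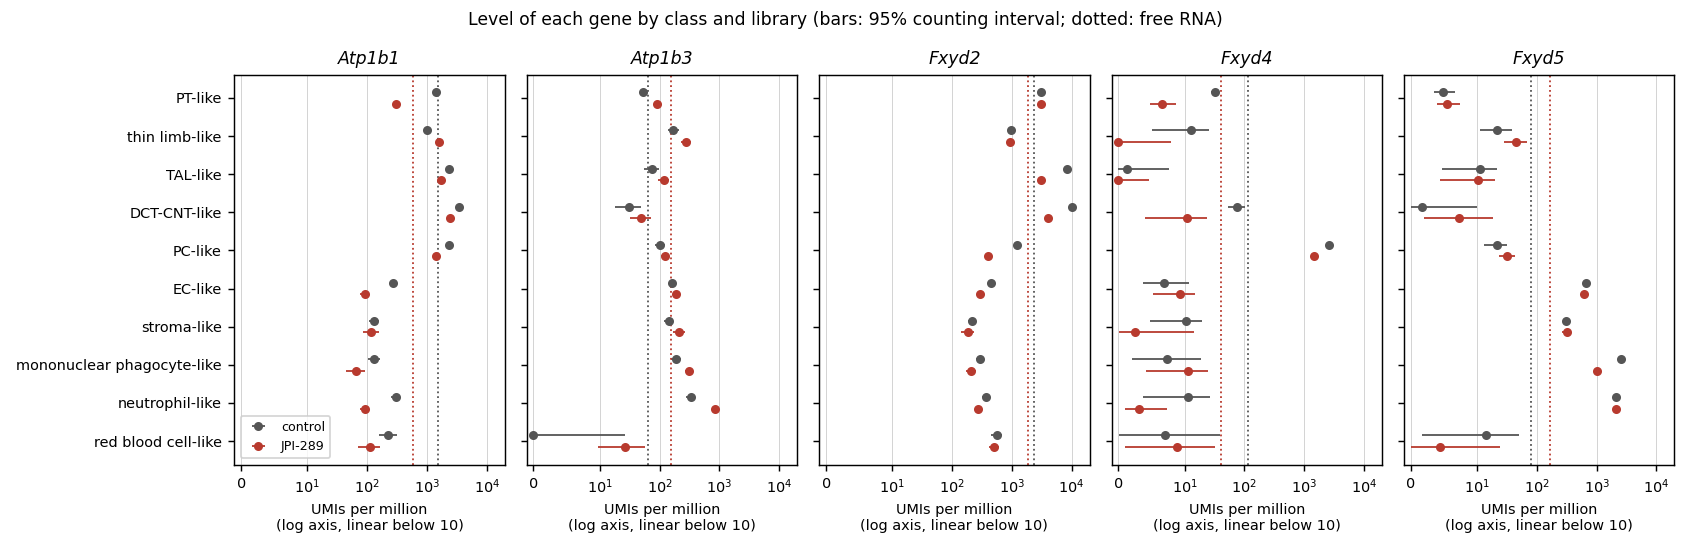
Level of each gene in CPM (horizontal axis, logarithmic above 10 and linear below) in the 10 classes, for the control library (grey) and the JPI-289 library (red), with 95% counting intervals as bars and the level in free RNA as dotted lines. Atp1b1 and Fxyd2 are high in tubule classes, Fxyd4 in PC-like cells, and Atp1b3 and Fxyd5 in leukocyte-like cells, and the red points of Atp1b1 lie left of the grey ones in every class but thin limb-like cells.

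Ratios between the libraries were taken for the 40 member-class pairs with at least 20 UMIs over both. In 11 pairs the level was at least 2-fold lower in the JPI-289 library, where 15.3% of all gene-class pairs were, and in 2 pairs it was at least 2-fold higher, where 9.13% of all were. The lower pairs were Atp1b1 in PT-like, EC-like, mononuclear phagocyte-like, neutrophil-like and red blood cell-like cells, Fxyd2 in TAL-like, DCT-CNT-like and PC-like cells, Fxyd4 in PT-like and DCT-CNT-like cells, and Fxyd5 in mononuclear phagocyte-like cells. The higher ones were Atp1b3 in neutrophil-like cells and Fxyd5 in thin limb-like cells. The genes differed in direction. Atp1b3 was higher with JPI-289 in all 9 classes tested, with the interval above 0 in 7, Atp1b1 was lower in 9 of 10, with the interval below 0 in 8, and Fxyd2 was lower in 10 of 10, with the interval below 0 in 6. The share of all genes with such counts was not computed. For Atp1b1 in EC-like, mononuclear phagocyte-like, neutrophil-like and red blood cell-like cells, the free RNA estimate was as large as the count or larger. The same held for Fxyd2 in neutrophil-like and mononuclear phagocyte-like cells, and the part of free RNA in these directions was not tested. After free RNA was subtracted, levels under 3 UMIs were set to 3. A ratio was then taken for the 32 of the 40 pairs with more than 3 UMIs left in a library. Of them 8 were at least 2-fold lower, among them Fxyd2 in EC-like cells, and 2 at least 2-fold higher, which were Atp1b3 in neutrophil-like and Atp1b1 in stroma-like cells. The share of all gene-class pairs past 2-fold was not computed after this subtraction. Fxyd2 in EC-like cells had 25.6 UMIs left in the control and 0 after JPI-289, and Atp1b1 in stroma-like cells had 1.3 and 15.2. Both of these ratios rest on the floor of 3 UMIs. The direction of Fxyd2 turned in some classes outside the tubule when free RNA was read from barcodes of 100 to under 300 UMIs, a second profile. Its ratio then went from -0.47 to 1.76 in neutrophil-like, from -0.51 to 1.63 in mononuclear phagocyte-like and from -0.16 to 1.23 in red blood cell-like cells, with 0 to 10.4 UMIs left in the control. In EC-like cells it kept its direction and went from -0.60 to -3.94, and in stroma-like cells from -0.22 to -1.33. There 0 UMIs were left after JPI-289, so that these values are set by the floor of 3 UMIs.

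**Figure D2:**
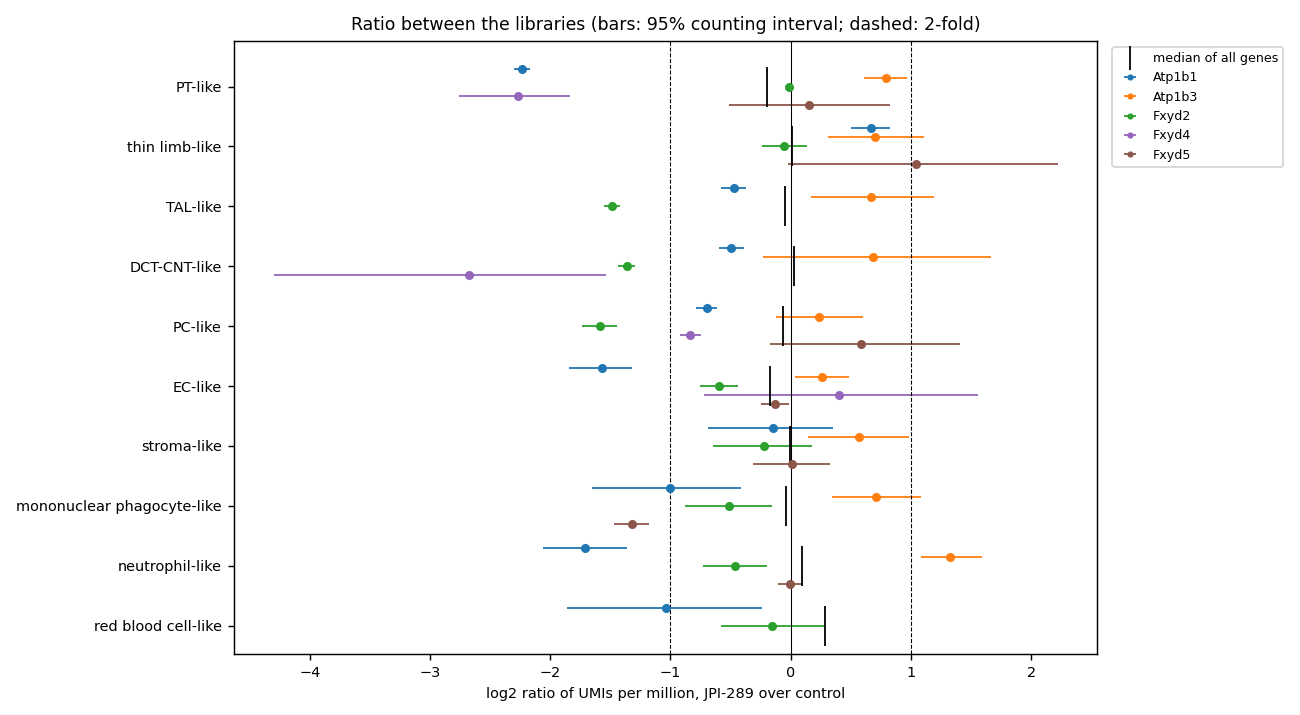
Log2 ratio of CPM, JPI-289 over control, for each gene in each class where it had at least 20 UMIs, with 95% counting intervals as bars, the median of all genes of the class as a black tick and a 2-fold difference as dashed lines. All points of Atp1b3 lie right of 0, those of Fxyd2 lie left of it or at it, and those of Atp1b1 run from -2.23 in PT-like to 0.66 in thin limb-like cells.

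PT-like cells were the largest class, with 1825 control and 1645 JPI-289 cells, and showed the widest gap for a beta subunit. Atp1b1 had 1441 CPM (1415 to 1467) in the control and 306 (294 to 319) after JPI-289. This is 4.71-fold lower with JPI-289, a log2 ratio of -2.23 (-2.30 to -2.17), where 23.9% of the 11309 genes tested in this class were at least 2-fold lower and the median of all genes was -0.20. Only 6.83% of those genes had a lower ratio. Atp1b3 had 52.3 and 90.3, a log2 ratio of 0.79 (0.61 to 0.97), which is above that of 86.25% of all genes. Fxyd2 had 3082 and 3044, a log2 ratio of -0.02 (-0.04 to 0.01). The gamma subunit transcript thus had an interval that held 0, while that of the beta 1 subunit lay well below it. Centred on the median of all genes, the ratio of Fxyd2 was 0.18. Fxyd4 had 260 UMIs in the control and 48 after JPI-289, a log2 ratio of -2.27 (-2.76 to -1.83), but free RNA accounted for an estimated 172 and 29.8 of them, and the ratio was -1.16 when each cell had equal weight. Fxyd5 had 40 UMIs in each library, fewer than the 118 and 121 estimated from free RNA.

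The PT-like cells came from 7 clusters, and each cluster lay almost wholly in 1 library, so that a cluster may stand for a library and not for a kind of cell. Clusters 3, 4, 8 and 16 held 98.9% of the control cells and clusters 0, 9 and 11 held 99.6% of the JPI-289 cells. Cluster 0 was led by Srxn1, Plin2 and Krt20, cluster 9 had Havcr1 and Krt20 and cluster 11 had Fgb, Fgg and Fga among its leading genes, and Krt20, Havcr1 and the fibrinogen genes are known from injured tubule. Atp1b1 ranged from 494 to 1836 CPM over the control clusters and from 218 to 405 over the JPI-289 clusters, and these ranges did not overlap. Atp1b3 ranged from 31.3 to 59.4 and from 82.0 to 99.1, also without overlap. Fxyd2 ranged from 511 to 4354 and from 2519.8 to 3375, with overlap, and Fxyd4 from 22.1 to 35.9 and from 5.61 to 7.51, without overlap. Fxyd5 ranged from 1.87 to 6.19 and from 3.63 to 8.66, with overlap. The share of all genes whose ranges did not overlap was not computed, and the clusters themselves split by library. The low end of Fxyd2 in the control was cluster 16, with 511 CPM against 2970.5 to 4354 in the other 3 control clusters. That cluster was led by Slc5a12 with the long RNAs Gm26917 and Snhg11, and it had 1339 CPM of Atp1b1. Cluster 12, unnamed, with the nuclear RNAs Neat1 and Malat1 among its leading genes, had 327 CPM of Fxyd2 and 641 of Atp1b1 in its 249 JPI-289 cells. Its leading marker lists were injured PT and PT. It is not in the ranges above, and its level of Atp1b1 lies within the range of the control clusters.

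**Figure D3:**
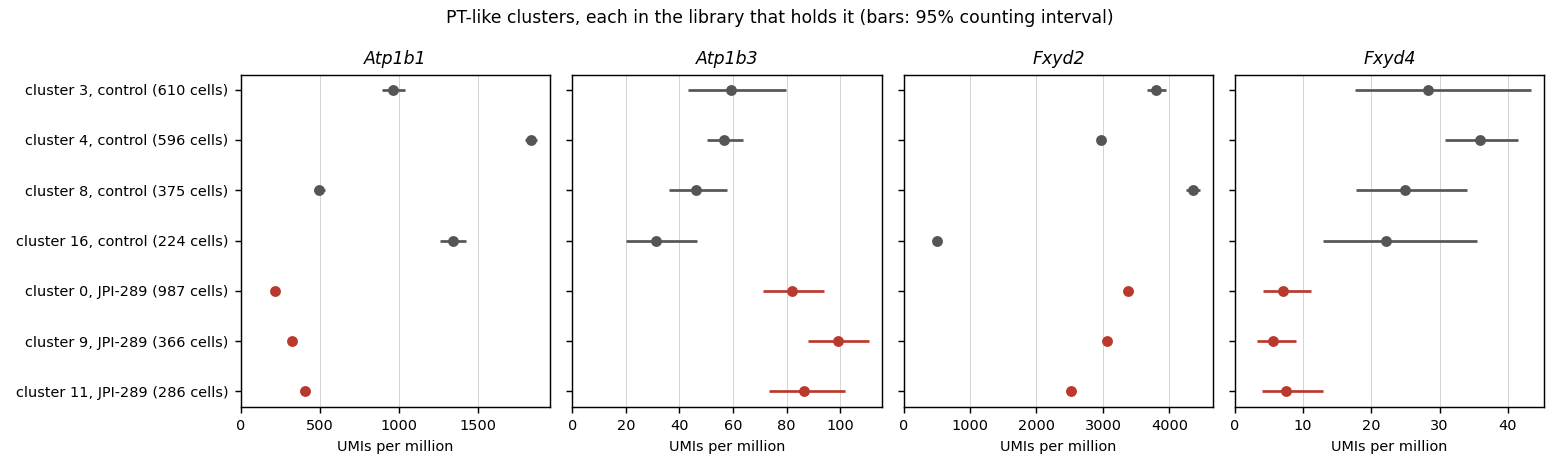
Level in CPM of Atp1b1, Atp1b3, Fxyd2 and Fxyd4 in the 7 PT-like clusters, each drawn for the library that holds nearly all of its cells (grey control, red JPI-289), with 95% counting intervals as bars and axes from 0. The 3 JPI-289 clusters lie below the 4 control clusters for Atp1b1 and Fxyd4 and above them for Atp1b3, and control cluster 16 stands apart at 511 for Fxyd2.

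The balance of the beta subunits was read as the share of Atp1b3 among all UMIs of Atp1b1, Atp1b2 and Atp1b3, which does not depend on how the cells were scaled. In PT-like cells this share was 3.50% (3.18% to 3.84%) in the control and 22.8% (21.3% to 24.3%) after JPI-289. It was also higher with JPI-289 in TAL-like cells, at 3.01% and 6.41%, and in PC-like cells, at 4.25% and 7.84%. In DCT-CNT-like cells the shares were 0.875% and 1.98%. The thin limb-like cells had nearly equal shares of 14.4% and 14.8%. In EC-like cells the shares were 36.6% and 66.5%, and in neutrophil-like cells 52.6% and 90.1%, but most Atp1b1 UMIs of these classes are within the free RNA estimate. Free RNA itself held 3.98% in the control and 20.6% after JPI-289, close to the PT-like cells, and its part in the shares of other classes was not tested.

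**Figure D4:**
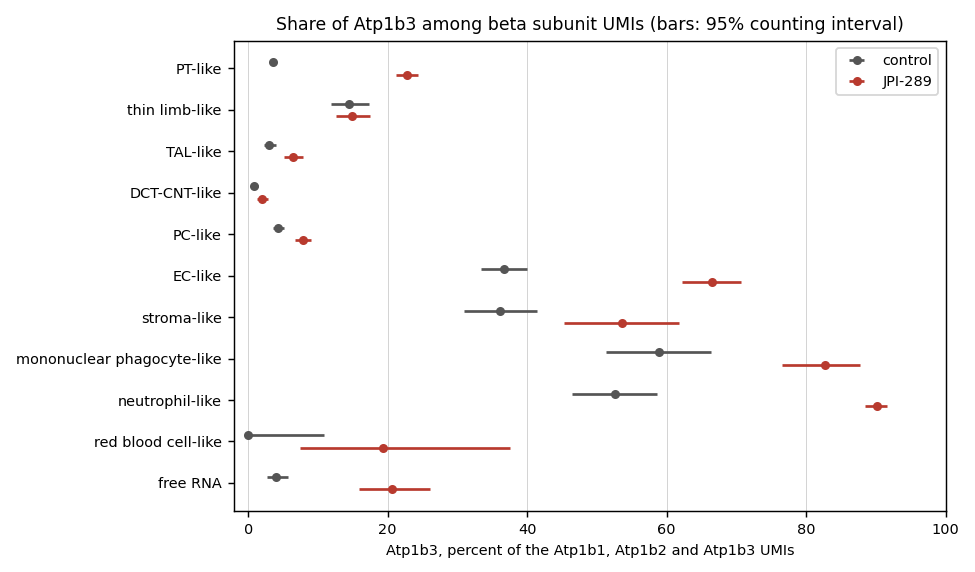
Atp1b3 UMIs as percent of the UMIs of Atp1b1, Atp1b2 and Atp1b3 in the 10 classes and in free RNA, for the control (grey) and JPI-289 (red) libraries, with exact binomial 95% intervals. The share is low in tubule classes and high in leukocyte-like cells, and red lies far right of grey in PT-like cells (22.8% against 3.50%) while both points nearly coincide in thin limb-like cells (14.8% and 14.4%).

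The beta 1 subunit differed less than the gamma subunit in TAL-like and DCT-CNT-like cells. In TAL-like cells (112 and 148 cells) Atp1b1 had 2364 and 1703 CPM, a log2 ratio of -0.47 (-0.58 to -0.37), while Fxyd2 had 8497 and 3032, a ratio of -1.49 (-1.56 to -1.42). In this class 11.0% of genes were at least 2-fold lower, and 4.75% had a lower ratio than Fxyd2. In DCT-CNT-like cells (138 and 105 cells) Fxyd2 again had a lower ratio than Atp1b1, with Atp1b1 at -0.49 (-0.60 to -0.39) and Fxyd2 at -1.36 (-1.44 to -1.29), where 9.46% of genes were at least 2-fold lower. Unnamed cluster 2, with 294 and 464 cells, had markers of both segments, with scores of 2.62 for DCT-CNT and 2.32 for TAL. Its Fxyd2 levels were 10449 and 4665, a ratio of -1.16 (-1.23 to -1.09), and its Atp1b1 ratio was -0.68 (-0.84 to -0.51). Atp1b3 stood higher with JPI-289 in TAL-like cells (73.4 and 117, a ratio of 0.67 with an interval from 0.17 to 1.19). In DCT-CNT-like cells it rested on 17 and 27 UMIs, and its ratio of 0.68 had an interval from -0.23 to 1.67. Fxyd4 in DCT-CNT-like cells had 42 and 6 UMIs, a ratio of -2.68 (-4.30 to -1.53) that was -0.11 when only cells with at least 1000 UMIs were clustered.

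PC-like cells, the main site of Fxyd4, numbered 82 in the control and 392 after JPI-289 and differed in depth, at medians of 9706 and 1540 UMIs. Fxyd4 had 2591 CPM (2494 to 2691) and 1454 (1391 to 1519), a log2 ratio of -0.83 (-0.92 to -0.75). Atp1b1 had 2330.1 and 1434, a ratio of -0.70 (-0.79 to -0.61), and Fxyd2 1199 and 399, a ratio of -1.59 (-1.74 to -1.44), where 14.2% of genes of the class were at least 2-fold lower. Atp1b3, at 103 and 122, and Fxyd5, at 21.2 and 32.2, had intervals that held 0. The class fell into 3 sub-clusters that split by library. One held 72 control and 0 JPI-289 cells and was led by Hsd11b2, Fxyd4 and Aqp2. Another, of 63 JPI-289 cells and 1 control cell, was led by Grp, Sprr2f and Aqp2. The rest, 329 JPI-289 and 9 control cells, was led by Sprr2f and had 911 CPM of Fxyd4 in its JPI-289 cells. That last sub-cluster has the fewest PC markers among its leading genes. Without it, Fxyd4 was 2654 CPM in the control sub-cluster and 2107 in the JPI-289 one. Its ratio over all cells of both, 73 from the control and 63 from the JPI-289 library, was -0.31. Fxyd2 was 1234 and 64.4 in these sub-clusters, and its ratio over the same 73 and 63 cells was -4.19.

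Thin limb-like cells (52 and 53 cells) were the exception for Atp1b1. Its level was 1000.5 CPM (919 to 1087) in the control and 1585 (1473 to 1704) after JPI-289, a log2 ratio of 0.66 (0.50 to 0.83). The ratio was above 0 in all 11 alternatives that gave one, but at equal weight of each cell it was 0.34, below that interval. Without thinning, 80.8% and 79.2% of these cells had a UMI of Atp1b1. After thinning to 1000 UMIs the shares were 51.1% (36.1% to 65.9%) and 66.0% (50.7% to 79.1%), with intervals that overlap. Atp1b3 was higher as well, at 170 and 277, a ratio of 0.70 (0.31 to 1.11), and Fxyd2 was at -0.05 with an interval that held 0. Fxyd5 had 12 and 21 UMIs, a ratio of 1.04 (-0.02 to 2.22) in a class where 10.0% of genes were at least 2-fold higher. It was under 2-fold in 6 of its 11 alternatives. Intercalated-like cells, with 37 and 57 cells, were under the limit for a comparison and had 2170.2 and 904 CPM of Atp1b1 and 4630.2 and 3430.5 of Fxyd2. Unlike in TAL-like and DCT-CNT-like cells, Atp1b1 differed more than Fxyd2 there, with ratios of -1.26 (-1.55 to -0.98) and -0.43 (-0.59 to -0.27).

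Among leukocyte-like cells Atp1b3 and Fxyd5 carried the signal. Neutrophil-like cells (196 and 647 cells) had 331 CPM of Atp1b3 (279 to 390) in the control and 834 (789 to 880.1) after JPI-289, a log2 ratio of 1.33 (1.08 to 1.59), where 11.3% of genes were at least 2-fold higher. Of the 6174 genes tested, 94.14% had a lower ratio. Fxyd5 was at 2101 and 2097 in these cells, a ratio of 0.00 with an interval from -0.11 to 0.10. In mononuclear phagocyte-like cells (131 and 160 cells), led by H2-Aa, Cd74 and C1qa, Fxyd5 had 2573 and 1030.2, a ratio of -1.32 (-1.47 to -1.18), where 17.4% of genes were at least 2-fold lower. That ratio was -0.95 with the first step of calling alone, -0.99 at a resolution of 0.5 and -0.97 with each library clustered alone. Atp1b3 had 189 and 309 in them, a ratio of 0.71 (0.34 to 1.08). Unnamed cluster 17, with 69 and 148 cells and led by Lyz2, Fn1 and Arg1, went the same way for both genes, with Atp1b3 at 501 and 1278 (ratio 1.35, from 1.17 to 1.53) and Fxyd5 at 1568 and 1008 (ratio -0.64, from -0.77 to -0.51).

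The remaining calls were of Atp1b1 outside the tubule, where its counts were near the free RNA estimate, whose part in the ratios was not tested. In EC-like cells Atp1b1 had 544 and 157 UMIs, a log2 ratio of -1.57 (-1.84 to -1.32), and free RNA was estimated to give 567 and 245. In that class 18.7% of all genes were at least 2-fold lower and 5.29% at least 2-fold higher. In neutrophil-like cells it had 130 and 144 UMIs, a ratio of -1.71 (-2.06 to -1.36), against 130.6 and 159 from free RNA. In mononuclear phagocyte-like cells the counts were 71 and 34 against 105 and 40.6, and in red blood cell-like cells 32 and 25 against 46.0 and 30.8. In these 4 classes the estimate was as large as the count or larger in both libraries, and this subtraction left 0 UMIs. The ratios were -1.01 (-1.65 to -0.41) and -1.04 (-1.86 to -0.24) in the last 2 classes, where 17.4% and 6.68% of genes were at least 2-fold lower, and 18.9% of genes were at least 2-fold higher in red blood cell-like cells. In mononuclear phagocyte-like cells the ratio was under 2-fold in 7 of 12 alternatives, and in red blood cell-like cells it was -0.72 with cells of at least 1000 UMIs. With the second free RNA profile, the ratio in EC-like cells was -2.17. This profile left 16.2 UMIs in the control and 0 after JPI-289, so that the value is set by the floor of 3 UMIs. The ratios were -0.03 in neutrophil-like, 0.82 in mononuclear phagocyte-like and -0.62 in red blood cell-like cells, where 0 to 8.4 UMIs were left in the control. Fxyd2 in leukocyte-like cells was also near its estimate, with 162 and 426 UMIs in neutrophil-like cells against 202 and 497 from free RNA. By contrast free RNA was estimated to give 5.4 of the 144 and 41.7 of the 1315 Atp1b3 UMIs of neutrophil-like cells, and 2265.5 of the 11749 and 429.6 of the 2240 Atp1b1 UMIs of PT-like cells. In EC-like cells Fxyd5 had 1335 and 1051 UMIs with 29.5 and 69.2 from free RNA, and its ratio was -0.13 (-0.25 to -0.01). The EC-like cells came from 3 clusters in different shares, with 220 and 259 cells in cluster 5, 101 and 314 in cluster 7, and 193 and 2 in cluster 19. Within clusters Fxyd5 was at 358 and 350 CPM in cluster 5 and at 660 and 656 in cluster 7, and Atp1b1 at 899 and 258 in cluster 5 and at 94.7 and 61.7 in cluster 7.

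In stroma-like cells Atp1b3 was at 143 and 211, a ratio of 0.57 (0.14 to 0.98), and the intervals of the other 3 genes tested held 0. The ratio of Atp1b1 there was -0.15, but it was -1.34 at equal weight of each cell, and 3.59 and 2.61 after subtraction of free RNA by the first and second profile, which left 1.3 and 9.1 UMIs in the control. Fxyd2 was at -0.22, and at -0.71 and -1.33 by these profiles, which left 0 UMIs after JPI-289.

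Detection per cell was compared after each cell was thinned to 1000 UMIs, with shallower cells left out. In PT-like cells Atp1b1 had a UMI in 62.2% (59.6% to 64.8%) of 1355 control cells and 25.4% (22.9% to 28.1%) of 1140 JPI-289 cells. This left out 470 and 505 PT-like cells. Without thinning, 78.7% of 1825 and 46.8% of 1645 cells had a UMI, with a median of 2195 UMIs in the control and 1857 after JPI-289. In red blood cell-like cells 19.6% and 9.68% had a UMI of the gene after thinning, at median depths of 1526 and 1517.5 UMIs. Free RNA was estimated to give 46.0 and 30.8 UMIs of the gene there, against 32 and 25 counted. Fxyd2 was detected in 84.5% and 90.8% of thinned PT-like cells, against 32.1% and 22.6% of red blood cell-like cells. Atp1b3 was found after thinning in 25.4% (19.2% to 32.5%) of 177 neutrophil-like cells from the control and in 50.3% (46.2% to 54.5%) of 574 from the JPI-289 library, with 19 and 73 cells left out. Without thinning the shares were 36.7% and 70.3%, with medians of 1973 and 2022 UMIs. In red blood cell-like cells Atp1b3 had a UMI in 0 of 56 thinned control cells, which allows a share of up to 5.36%, and in 1.08% of 93 JPI-289 cells. The gene was thus seen in more of the neutrophil-like cells of the JPI-289 library at equal depth. PC-like cells had Fxyd4 in 77.8% of 72 thinned cells in the control and in 59.3% of 369 after JPI-289, with 10 and 23 cells left out, and in 91.5% and 73.0% without thinning at the depths given above. At most 1.08% of thinned red blood cell-like cells had it. Mononuclear phagocyte-like cells had Fxyd5 in 82.1% of 95 thinned cells in the control and in 57.8% of 135 after JPI-289, with 36 and 25 left out, and in 87.0% and 76.2% without thinning, at medians of 4038 and 2919.5 UMIs. No thinned red blood cell-like cell had Fxyd5, which allows up to 5.36% of 56 and 3.23% of 93 cells.

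Of the rest of the family, Atp1b2 and Fxyd1 (phospholemman) were seen mainly in stroma-like cells, with 105 and 25 and with 133 and 47 UMIs. Fxyd6 had 100 and 27 UMIs in EC-like cells, and Fxyd3 had 472 and 31 in the 15 and 3 urothelium-like cells. Atp4b had 0 UMIs in either library, over all barcodes.

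The genes with the most similar pattern to each member were found over 20 points, the 10 classes in each library, by Pearson correlation of log2(CPM + 10) among 9752 genes. The points share 2 libraries with their free RNA and depth, so the values are a description. Atp1b1 was closest to Lad1 (0.97), Pkhd1 and Aktip, Fxyd4 to Spink8 (0.97) and Sprr2f, and Fxyd5 to Plekho2 (0.99), Ppp1r18 and Jdp2. Atp1b3 was closest to H3f3b (0.95), Max and Arpc3. Fxyd2 was closest to Mturn (0.90). Among the members, Atp1b1 had a correlation of 0.81 with Fxyd2, and Atp1b3 had 0.72 with Fxyd5 and -0.31 with Atp1b1.

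The pump works with sodium entry on the luminal side, with potassium and chloride channels, and with its regulators, and 4 lists with 69 genes in all covered the family and these partners. In PT-like cells 47 of the 69 had enough UMIs, of which 24 were at least 2-fold lower with JPI-289, where 23.9% of all genes were, and 2 at least 2-fold higher, where 9.14% were. The median log2 ratio of the 47 genes was -1.03 beside -0.20 over all genes. Some of these genes, such as Slc34a1, are also markers that named the class. Of the sodium entry transporters 9 of 15 were at least 2-fold lower. That list also holds the basolateral Slc4a4, so the count is not one of luminal entry alone. Slc13a1, a sodium sulfate cotransporter, had 511 and 35.0 CPM, a ratio of -3.87 (-4.06 to -3.69), and Slc13a3, for dicarboxylates, had 242 and 12.3, a ratio of -4.29 (-4.62 to -3.99). Slc4a4, the basolateral bicarbonate exit path, had 1352 and 334, a ratio of -2.02 (-2.08 to -1.95). The phosphate transporter Slc34a1 had 1436 and 776, a ratio of -0.89 (-0.93 to -0.84), and Slc34a3, of the same family, had 14 and 70 UMIs, a ratio of 2.44 (1.64 to 3.42). Of the channels 5 of 10 were at least 2-fold lower, led by Kcnj16, a basolateral potassium channel, with 191 and 8.47, a ratio of -4.48 (-4.88 to -4.13). Clic1, an intracellular chloride channel protein, was higher, with 156 and 358, a ratio of 1.20 (1.10 to 1.30). Of the pump control genes 7 of 16 were at least 2-fold lower and none at least 2-fold higher. Ank3, the ankyrin that anchors membrane proteins to spectrin, had 107 and 18.7, a ratio of -2.51 (-2.78 to -2.25). The spectrins Sptan1 and Sptbn1 were at -1.03 and -0.80, and the transcription factor Esrrg was at -3.21 (-3.91 to -2.63).

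The distal classes had mixed lists. In TAL-like cells 8 of 39 genes of the 4 lists were at least 2-fold lower, where 11.0% of all genes were, and 4 at least 2-fold higher, where 9.13% were. Slc12a1, the furosemide-sensitive cotransporter and a marker of the class, had 756 and 181 CPM, a ratio of -2.06 (-2.34 to -1.79). The sodium hydrogen exchanger Slc9a3, at 121 and 454, had a ratio of 1.91 (1.57 to 2.27), and the channel subunit Scnn1a, at 140 and 340, one of 1.28 (0.95 to 1.63). Tsc22d3, a glucocorticoid-induced gene, had 16 and 86 UMIs, a ratio of 2.27 (1.53 to 3.18). In DCT-CNT-like cells 12 of 40 genes were at least 2-fold lower and 1 higher, where 9.46% and 7.98% of all genes were. Slc12a3, the thiazide-sensitive cotransporter and a marker of this class, was at -1.59 (-1.74 to -1.44). The potassium channel Kcnj1 was at -3.78 (-5.38 to -2.71) on 91 and 6 UMIs, and the kinase Sgk1 at 1.07 (0.62 to 1.55). Summed over all 9 markers of their class, levels went the other way from Slc12a3 and Slc12a1. The sums were 17875 and 35586 CPM in DCT-CNT-like cells and 7822 and 11907 in TAL-like cells, and the reason was not tested. In PC-like cells 9 of 42 were at least 2-fold lower and 5 higher, where 14.2% and 8.41% of all genes were. The 5 were Kcnj15, Sgk1, Slc34a1, Slc5a2 and Tsc22d3. Slc34a1, with 11 and 40 UMIs, and Slc5a2, with 3 and 17, are PT markers. Free RNA made up an estimated 2.53% and 7.72% of the UMIs of this class, and its part in these ratios was not tested. Hsd11b2, which protects the mineralocorticoid receptor from glucocorticoids, had 1341 and 252 CPM, a ratio of -2.41 (-2.59 to -2.24). Scnn1g, the gamma subunit of the epithelial sodium channel, was at -1.70 (-2.16 to -1.26), Scnn1a at 0.31 (0.10 to 0.52), and Sgk1 at 1.21 (0.97 to 1.46). These PC-like values share the difference in depth and sub-clusters given above, whose part in them was not tested.

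**Figure D5:**
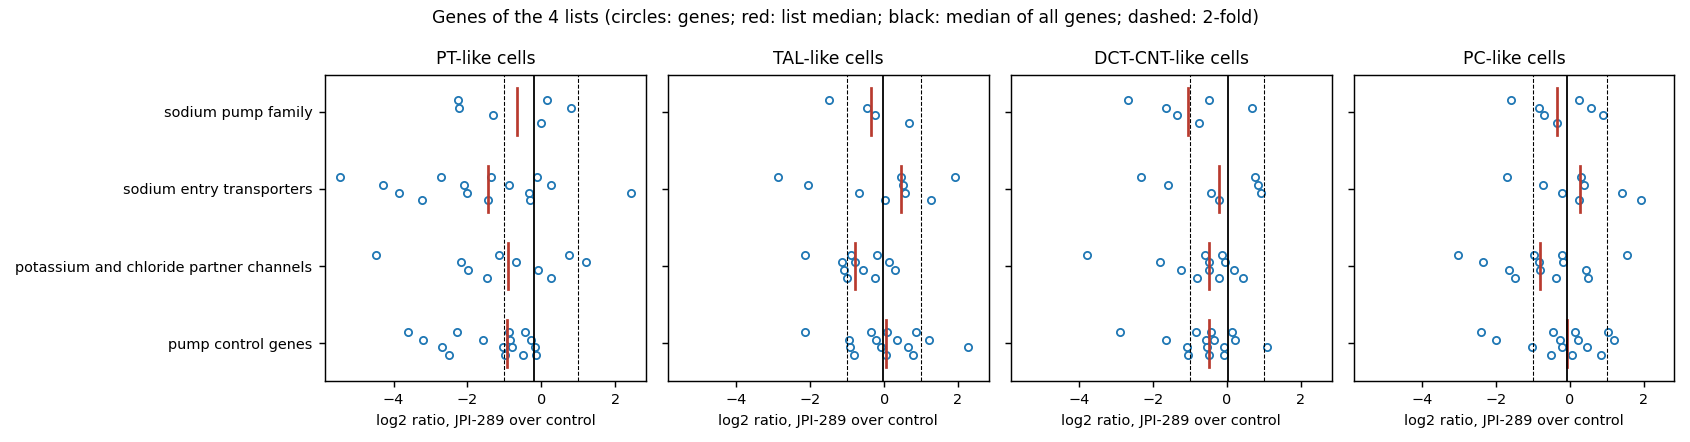
Log2 ratio, JPI-289 over control, of the genes of the 4 lists with at least 20 UMIs in PT-like, TAL-like, DCT-CNT-like and PC-like cells, with 1 circle per gene, red lines for list medians, a black line for the median of all genes and dashed lines for a 2-fold difference. All 4 list medians lie left of the black line in PT-like cells, while in TAL-like and PC-like cells the median of the sodium entry transporters lies right of it. In PC-like cells that list includes the PT markers Slc34a1 and Slc5a2, at 1.41 and 1.92.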

How the data were processed

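The authors used Cell Ranger 5.0.1 on mm10 to count UMIs of 5′ libraries (Chromium Next GEM 5′ kit v2), and deposited raw counts of all 737280 barcodes, with no cells called. The control library has 38328760 UMIs and the JPI-289 library 35548396. From these counts, barcodes over 3338 and 2618 UMIs were taken as cells, then barcodes of at least 500 UMIs that differed from empty droplets (10000 simulations, false discovery rate 0.01). This gave 4314 and 5443 cells, and 546 and 397 with over 50% mitochondrial UMIs were removed. Cells were clustered on 2000 variable genes without the pump family (30 components, Leiden resolution 1, no correction between libraries) into 27 clusters. A cluster took the name of its leading marker list at a mean log2 score of 0.75 or more, if 3 or more markers had UMIs and no other list had more of the 10 leading genes. Scores below 2 also needed a marker of the class among those genes. Clusters with 2 lists within 0.5 of each other stayed unnamed, which kept out cluster 2 (7.80% of control and 9.20% of JPI-289 cells). Clusters 12 (0.478% and 4.93%) and 17 (1.83% and 2.93%) stayed unnamed as well. The clusters had been seen when these limits were set. Markers of injured PT counted as PT.

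UMIs were added up for each class and library and expressed per 1000000 (CPM). Log2 ratios were taken after 0.5 UMI was added to each sum, and a gene needed 20 UMIs over both libraries. Where free RNA was subtracted no 0.5 UMI was added, and sums under 3 UMIs were set to 3. Intervals are exact Poisson for levels and exact binomial for ratios and shares. Scrublet marked 1 and 2 cells, too few to have worked, so doublets remain. The members, the gene lists and the tests were chosen with earlier results of these data known. Named list genes are the 3 with most UMIs and, with at least 50 UMIs, the 2 that differed most in each direction, and the text gives a selection of them. The genes named outside this rule, namely Atp1b2, Fxyd1, Fxyd3, Fxyd6, Atp4b and, in PC-like cells, Slc5a2, were chosen after their values were seen. Some genes of the family and of the similar patterns are not reported here. The ratios and intervals were tested on simulated counts. Computation was in Python 3.11.15 (scipy 1.17.1, numpy 2.4.6), with scanpy 1.11.5 and leidenalg 0.10.2 for clustering. RefSeq promoters matched 4 of the 5 members.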

Additional observations from a re-analysis of the deposited data

Results flagged for a closer look

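Atp1b1 was flagged because its ratio had opposite directions in 2 classes of tubule cells. On the log2 scale it was 0.66 (higher after JPI-289) in thin limb-like cells and -2.23 in PT-like cells, and with 1 library per condition the difference between the classes was not tested.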

How the results depend on the processing

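The alternatives took the first step of cell calling alone, cells of at least 1000 UMIs, at most 20% mitochondrial UMIs, resolution 0.5, each library clustered alone, the pump family allowed in clustering, scaling to nuclear genes, equal weight of each cell, free RNA subtracted, 1 CPM added, cells in the top 5% of doublet scores left out, centring on the median of all genes, and 100 UMIs per gene. Another 3 were added once the data had been seen: free RNA from barcodes of 100 to under 300 UMIs, PC-like sub-clusters led by PC markers, and PT-like cells of at least 3000 UMIs. In PT-like cells Atp1b1 kept its direction and stayed over 2-fold lower in all 14 alternatives, with -2.32 in the first step alone, -1.997 at equal weight, -2.37 and -2.39 with free RNA subtracted by the 2 profiles, -2.04 centred and -2.31 in cells of at least 3000 UMIs. Atp1b3 was 0.99 centred. Fxyd2 was 0.016 with each library clustered alone, -0.059 at equal weight, 0.18 centred and 0.058 with the second free RNA profile. Fxyd4 was -1.16 at equal weight, -2.76 in cells of at least 3000 UMIs and -4.63 with the second profile, which left 0 UMIs after JPI-289, so that the value is set by a floor of 3 UMIs, and Fxyd5 was 0.93 without the highest doublet scores. Pairs at least 2-fold higher numbered 1 of 25 tested in the first step alone, 1 of 33 with 100 UMIs per gene, 4 of 41 with each library clustered alone and 6 of 38 with the second profile. Pairs at least 2-fold lower numbered 6 of 25 in the first step alone and 14 of 40 at equal weight of each cell. They numbered 6 of 33 at resolution 0.5, where no TAL-like or DCT-CNT-like class was named. The share of all gene-class pairs past 2-fold was not computed in these alternatives. At 100 UMIs per gene 1 list gene was at least 2-fold higher in PT-like cells. Atp1b1 in mononuclear phagocyte-like cells reversed to 0.82 with the second profile. Smaller ratios also turned: Fxyd2 to 1.76, 1.63 and 1.23 in neutrophil-like, mononuclear phagocyte-like and red blood cell-like cells with that profile, and Atp1b1 in stroma-like cells to 3.59 with the first and 2.61 with the second. Except where the alternative left fewer genes, cells or classes, the cause was not tested. No paired analysis was possible because each condition is 1 library. Barcodes of 1 to 99 UMIs held only 441021 and 343770 UMIs in all, which limits the first free RNA profile.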
